A study of Mus musculus with 3 samples.

Results

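The genes described here are those of glycolysis, the breakdown of glucose to pyruvate and lactate, and targets of the hypoxia-inducible factors (HIFs). The list named 35 members by symbol: 19 glycolytic enzymes and transporters, 3 kinases that regulate the flow of carbon, 12 HIF targets outside glycolysis, and Hif1a itself. All 35 were matched to a gene identifier among the 41214 in the count tables. Of these members 33 passed the filter on low counts, as did 11865 genes in all. Eno2 and Car9 did not pass.

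RNA was sequenced from 3 cultures of mouse keratinocytes, the epithelial cells of the epidermis, with 1 library for each genotype label: ARPC4 ko, Nrf2-EGFP and wt. Arpc4 encodes part of the Arp2/3 complex, the builder of branched actin networks, and Nrf2-EGFP is a fusion of the antioxidant transcription factor Nrf2 to a fluorescent protein. The title of the ARPC4 ko library also holds the word Cre, a recombinase, and that of the Nrf2-EGFP library the word High. All cultures were C57BL/6, immortalised with SV40 and growing exponentially, with no treatment named. Whether a culture was 1 clone, what drove Cre or the fusion, and the oxygen tension are not given in the labels. The series concerns epidermis without the Arp2/3 complex, a disease like psoriasis and the activity of Nrf2.

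The libraries held 23033863 (ARPC4 ko), 25723959 (Nrf2-EGFP) and 22924294 (wt) gene counts. Arpc4 had 61.0 CPM (counts per 1000000 gene counts, after scaling) in the library labelled ARPC4 ko, 98.4 CPM in that labelled Nrf2-EGFP and 94.2 CPM in wt. Nfe2l2, which encodes Nrf2, had 179 CPM in the library labelled ARPC4 ko, 166 CPM in that labelled Nrf2-EGFP and 225 CPM in wt. Arpc4 counts were thus lowered but not lost under the knockout label, and Nfe2l2 counts were not raised under the Nrf2-EGFP label. Counts per gene do not show which exons were read, or whether RNA of the fusion was counted as Nfe2l2. They therefore do not tell whether the knockout was complete or the fusion made, and the libraries are named by their labels only. Keratinocyte markers were abundant, with 8 of 8 measured, but their summed level was 14400 CPM in the library labelled ARPC4 ko, 19000 CPM in that labelled Nrf2-EGFP and 24000 CPM in wt. The basal keratins Krt5 and Krt14 were 2.11-fold and 2.27-fold lower under the ARPC4 ko label than in wt. The other markers differed less, under the ARPC4 ko label from Itga6, 1.30-fold lower, to Trp63, 1.18-fold higher. Under the Nrf2-EGFP label they ranged from Dsp, 1.27-fold lower, to Col17a1, 1.25-fold higher. The part of these differences in the results was not tested. Of the immune, fibroblast, endothelial and melanocyte markers 1 in each list passed the filter, and each list summed to between 1.07 and 7.20 CPM per library. The fibroblast collagens Col1a2 and Col3a1, the macrophage gene Adgre1 and the pigment gene Tyr had 0 counts in all 3 libraries. The collagen gene Col1a1 had 11 (ARPC4 ko), 16 (Nrf2-EGFP) and 2 counts (wt), and the macrophage gene Csf1r had 22 (ARPC4 ko), 22 (Nrf2-EGFP) and 4 counts (wt), all under the filter.

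Glycolysis takes up glucose through the transporter GLUT1, splits it in a series of enzyme steps and yields pyruvate, which lactate dehydrogenase turns into lactate for export. HIF-1, a pair of HIF-1α (Hif1a) and ARNT, induces most of these enzymes when oxygen is scarce. With oxygen, prolyl hydroxylases of the EGLN family mark HIF-1α for destruction, so HIF activity is set largely at the protein, which RNA counts do not measure. The epidermis has no blood vessels of its own, and keratinocytes are known for a high use of glycolysis.

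Most glycolytic and HIF target transcripts were lower in the libraries labelled ARPC4 ko and Nrf2-EGFP than in wt, most of them by less than 2-fold. The 35 members summed to 6139 CPM in the library labelled ARPC4 ko, 6284 CPM in that labelled Nrf2-EGFP and 8948 CPM in wt. The sum was 1.46-fold lower (1.45 to 1.47) under the ARPC4 ko label and 1.42-fold lower (1.41 to 1.43) under the Nrf2-EGFP label than in wt. Ranges in parentheses are 95% intervals for counting error only, since 1 library per label leaves the spread between cultures unmeasured and no test of genotype can be made. In such bulk RNA, fewer cells of a type and less RNA per cell cannot be told apart. Pkm alone gave 22% of the summed difference from wt under the ARPC4 ko label and 15.3% under the Nrf2-EGFP label, and Ldha gave 17.3% and 18.7%. Without Pkm the sums were 4372 CPM in the library labelled ARPC4 ko, 4306 CPM in that labelled Nrf2-EGFP and 6562 CPM in wt.

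A gene was past the 2-fold rule where its log2 fold, from CPM + 0.5, was at least 1 in size and its counting interval excluded a ratio of 1. The 1.5-fold rule was the same with the smaller fold. Against wt, 2 of 33 members were past the 2-fold rule as higher under the ARPC4 ko label (Ldhb, Pfkfb3), beside 4.7% of all genes compared. On the lower side there were 3 (Pfkp, Bnip3, Ak4), which is 9.09% of the members beside 2.06% of all genes. At 1.5-fold, 4 members were higher and 11 lower, or 12.1% and 33.3% of the members, beside 10.8% and 6.24% of all genes. Under the Nrf2-EGFP label, 0 members were higher than wt at 2-fold, beside 3.57% of all genes, and 3 were lower (Pfkl, Bnip3, Ak4), beside 2.05%. At 1.5-fold, 0 were higher beside 8.61% of all genes, and 14, or 42.4%, were lower beside 5.72%. These 14 include Ankrd37, which passed the filter only through wt, where it was highest. The median log2 fold of the measured members was -0.41 under the ARPC4 ko label and -0.49 under the Nrf2-EGFP label, beside -0.01 and 0.01 over all genes compared. These comparisons share the single wt library, so a high value in wt enters both.

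**Figure D1:**
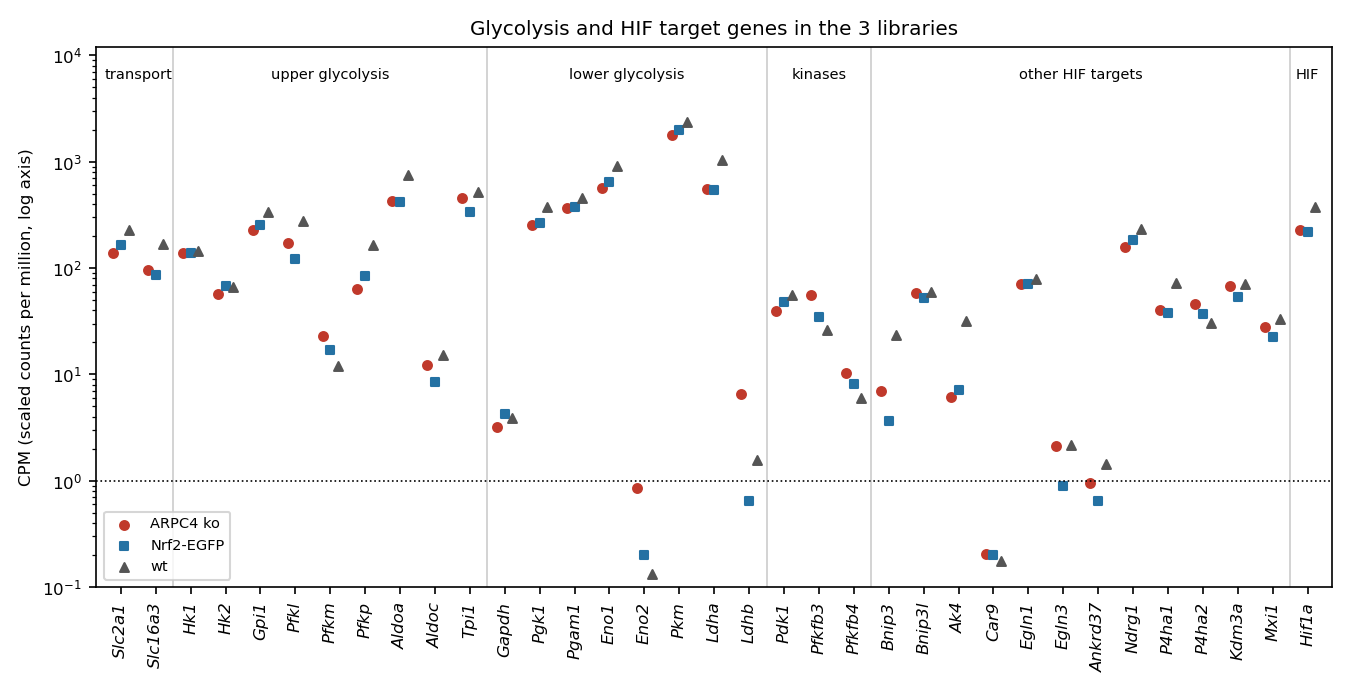
Level of each of the 35 genes, in CPM on a log axis, in the 3 libraries, grouped by role. Points are single libraries with no error bar, and the dotted line is the filter at 1 CPM, which Eno2 and Car9 did not reach. The wt triangles lie above the other points for most glycolytic genes, and below them for Pfkm, Pfkfb3, Pfkfb4 and P4ha2.

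Transcripts for glucose import and lactate export were lower under the ARPC4 ko and Nrf2-EGFP labels than in wt. Slc2a1, which encodes the glucose transporter GLUT1 (chromosome 4, 119108711 to 119137983 in mm10), had 139.8 CPM in the library labelled ARPC4 ko, 166 CPM in that labelled Nrf2-EGFP and 229 CPM in wt. It was 1.64-fold lower (1.57 to 1.71) under the ARPC4 ko label and 1.38-fold lower (1.32 to 1.44) under the Nrf2-EGFP label. Slc16a3, the lactate exporter MCT4, had 95.5 (ARPC4 ko), 85.4 (Nrf2-EGFP) and 167 CPM (wt). It was 1.75-fold lower (1.66 to 1.84) under the ARPC4 ko label and 1.96-fold lower (1.85 to 2.06) under the Nrf2-EGFP label, and the log2 fold of -0.96 under the Nrf2-EGFP label was just short of the 2-fold rule.

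In upper glycolysis, where glucose is phosphorylated and split, the hexokinases lay near wt, and phosphofructokinase and aldolase further from it. Hk1 had 137 CPM in the library labelled ARPC4 ko, 138 CPM in that labelled Nrf2-EGFP and 145 CPM in wt. Hk2, the hexokinase known as HIF-inducible, had 57.3 (ARPC4 ko), 68.5 (Nrf2-EGFP) and 65.9 CPM (wt), and its ratio to wt under the Nrf2-EGFP label was 1.04 (0.968 to 1.11). The larger of the hexokinase differences was 1.15-fold, for Hk2 under the ARPC4 ko label, and for Hk1 under the ARPC4 ko label the log2 fold of -0.08 became 0.03 when libraries were scaled by total counts. Gpi1, which converts glucose 6-phosphate to fructose 6-phosphate, was 1.46-fold lower (1.41 to 1.51) under the ARPC4 ko label and 1.32-fold lower (1.28 to 1.36) under the Nrf2-EGFP label.

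Phosphofructokinase, the committed step, has 3 genes, and their differences from wt were unequal. Pfkl, the liver-type subunit, had 173 CPM in the library labelled ARPC4 ko, 123 CPM in that labelled Nrf2-EGFP and 275 CPM in wt. It was 1.59-fold lower (1.53 to 1.65) under the ARPC4 ko label and 2.24-fold lower (2.15 to 2.34), past the 2-fold rule, under the Nrf2-EGFP label. Pfkp, the platelet-type subunit, had 63.1 (ARPC4 ko), 84.8 (Nrf2-EGFP) and 165 CPM (wt), and was 2.61-fold lower (2.46 to 2.78) under the ARPC4 ko label, past the 2-fold rule, and 1.94-fold lower (1.84 to 2.05) under the Nrf2-EGFP label. Pfkm, the muscle-type subunit, lay the other way, with 560 (ARPC4 ko), 418 (Nrf2-EGFP) and 271 counts (wt), or 23.0 (ARPC4 ko), 16.8 (Nrf2-EGFP) and 12.1 CPM (wt). It was 1.91-fold higher (1.65 to 2.22) under the ARPC4 ko label and 1.40-fold higher (1.20 to 1.63) under the Nrf2-EGFP label. Under the ARPC4 ko label its log2 fold of 0.91 was short of the 2-fold rule, and 1.01 when libraries were scaled by total counts. Exons of Pfkm overlap those of Senp1 on the opposite strand and of Gm26513 on its own strand, and how the reads of such overlaps were counted was not given in the sources used here.

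Aldoa, the main aldolase, had 428 CPM in the library labelled ARPC4 ko, 414 CPM in that labelled Nrf2-EGFP and 758 CPM in wt, and was 1.77-fold lower (1.73 to 1.82) under the ARPC4 ko label and 1.83-fold lower (1.79 to 1.88) under the Nrf2-EGFP label. Aldoc, the minor aldolase, had 12.3 (ARPC4 ko), 8.57 (Nrf2-EGFP) and 15.1 CPM (wt). Tpi1, which interconverts the triose phosphates, had 452 (ARPC4 ko), 339 (Nrf2-EGFP) and 518 CPM (wt), a ratio to wt of 1.14-fold lower under the ARPC4 ko label and 1.53-fold lower under the Nrf2-EGFP label. Of the 9 upper glycolysis genes, 8 had a log2 fold below 0 under the ARPC4 ko label and 7 under the Nrf2-EGFP label.

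In lower glycolysis, which makes pyruvate and lactate, Ldha stood out among the abundant genes and its minor partner Ldhb differed in the other direction under the ARPC4 ko label. Pkm, pyruvate kinase, was the most abundant member, with 1768 CPM in the library labelled ARPC4 ko, 1978 CPM in that labelled Nrf2-EGFP and 2386 CPM in wt. Per kilobase of exon its level was 353 (ARPC4 ko), 396 (Nrf2-EGFP) and 477 CPM per kilobase (wt), at percentile 99.6, 99.6 and 99.7 of the genes compared. It was 1.35-fold lower (1.33 to 1.37) under the ARPC4 ko label and 1.21-fold lower (1.19 to 1.22) under the Nrf2-EGFP label. A gene count does not tell the M1 from the M2 splice form of Pkm.

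Ldha, the lactate dehydrogenase subunit that favours lactate (chromosome 7, 46841475 to 46855627), had 551 CPM in the library labelled ARPC4 ko, 539.8 CPM in that labelled Nrf2-EGFP and 1037 CPM in wt. It was 1.88-fold lower (1.84 to 1.92) under the ARPC4 ko label and 1.92-fold lower (1.88 to 1.96) under the Nrf2-EGFP label. The libraries labelled ARPC4 ko and Nrf2-EGFP lay close together and wt apart from both.

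Ldhb, the subunit that favours pyruvate, had 158 counts in the library labelled ARPC4 ko, 16 in that labelled Nrf2-EGFP and 35 in wt. In scaled counts these were 6.50 (ARPC4 ko), 0.644 (Nrf2-EGFP) and 1.56 CPM (wt). Ldhb was 4.18-fold higher (2.88 to 6.21) under the ARPC4 ko label, past the 2-fold rule, and 2.42-fold lower (1.30 to 4.68) under the Nrf2-EGFP label, where the log2 fold of -0.85 was not past it. Eno1, the main enolase, had 562 (ARPC4 ko), 645 (Nrf2-EGFP) and 907 CPM (wt), and was 1.61-fold lower (1.58 to 1.65) under the ARPC4 ko label and 1.41-fold lower (1.38 to 1.44) under the Nrf2-EGFP label. Pgk1, the first ATP-making step, had 253 (ARPC4 ko), 263 (Nrf2-EGFP) and 379 CPM (wt), and Pgam1, the mutase after it, had 366 (ARPC4 ko), 376 (Nrf2-EGFP) and 452 CPM (wt). Eno2, the enolase of neurons, had 21 (ARPC4 ko), 5 (Nrf2-EGFP) and 3 counts (wt), under the filter in every library, with a ratio of 6.48 (1.93 to 33.9) between the library labelled ARPC4 ko and wt.

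Several members share sequence with copies elsewhere in the genome, and the deposited tables set aside the reads that were not unique. Of the 65-base windows of the main Gapdh transcript, as long as the reads, 81.1% also occurred unchanged in transcripts of other genes. The corresponding share was 68.2% for Eno1, 67.9% for Pgk1, 41.0% for Pgam1, 37.8% for Bnip3, 21.1% for Pkm, 19.8% for Ldhb, 10.3% for Ak4 and 8.28% for Ldha. It was 0% for the transporters, the hexokinases, the 3 phosphofructokinases, Aldoc and Hif1a. Gapdh, which makes up a large share of RNA in most cells, had only 78 counts in the library labelled ARPC4 ko, 105 in that labelled Nrf2-EGFP and 87 in wt, and its level is reported as uncertain. Its ratio to wt was 1.21-fold lower (0.878 to 1.66) under the ARPC4 ko label and 1.09-fold higher (0.814 to 1.47) under the Nrf2-EGFP label. At most 2 copies per member, those sharing the most windows, were looked up, and only where present in the count tables. None of Pkm, Ldha or Tpi1 was among them, and further copies were not checked. Reads that match a copy and its member alike were set aside, so low counts do not show that a copy is silent. The copies looked up had from 0 to 3 counts in each library. Among them Pgk1-rs7, Eno1b, Gm16439 (a copy of Bnip3) and Ak3l2-ps (a copy of Ak4) had 0 in all, and Gm1840 (a copy of Gpi1) had 2 (ARPC4 ko), 3 (Nrf2-EGFP) and 3 counts (wt).

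**Figure D2:**
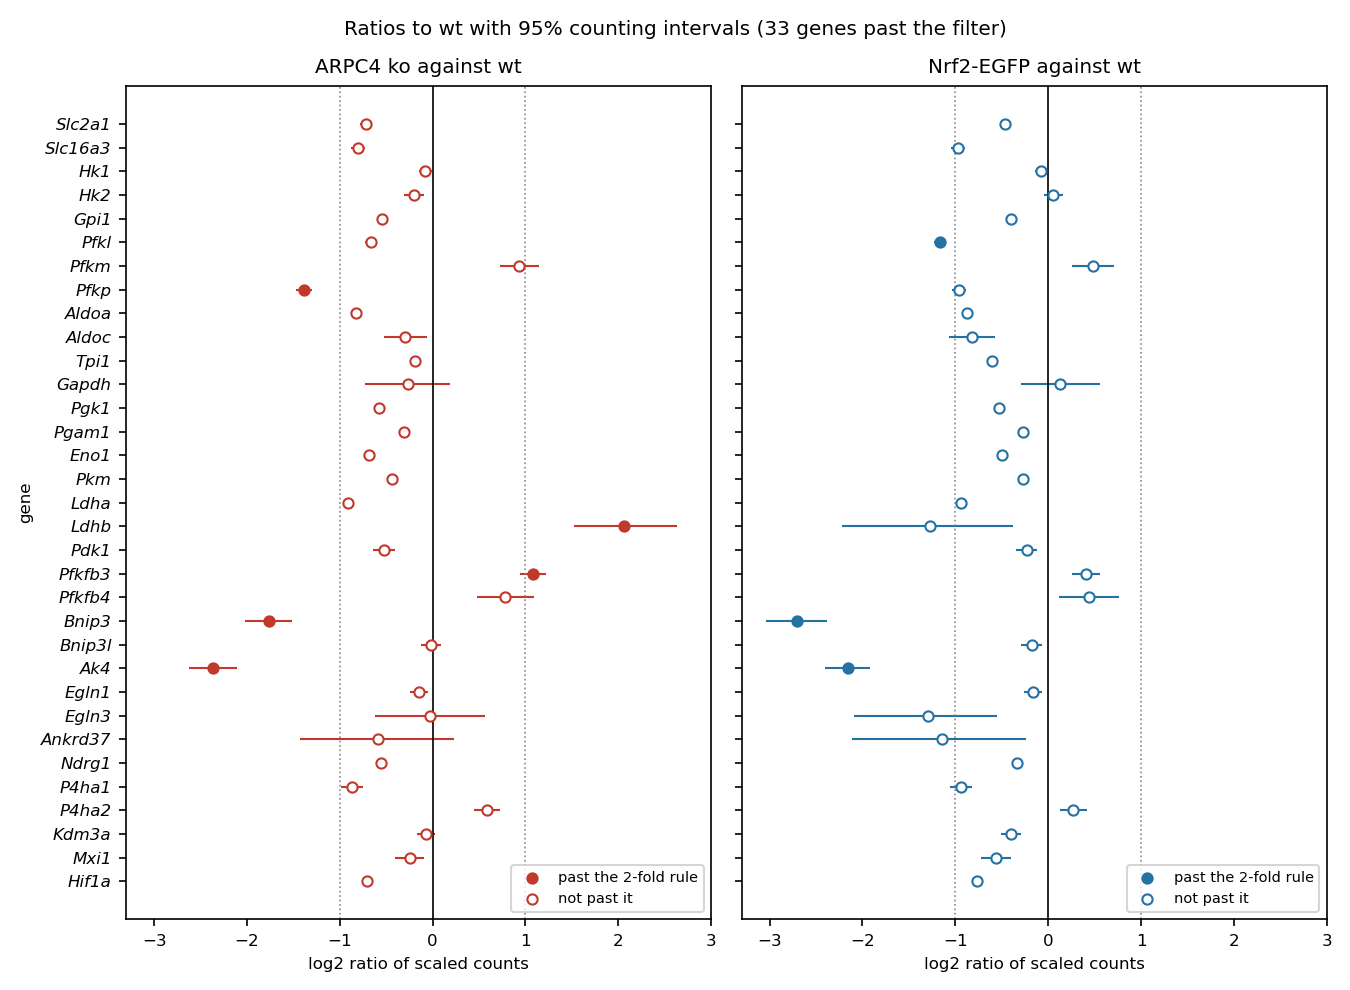
Log2 ratio of scaled counts to wt for the 33 genes past the filter, in the library labelled ARPC4 ko (left) and in that labelled Nrf2-EGFP (right), with 95% counting intervals as bars. Filled points are past the 2-fold rule, which uses CPM + 0.5, so that low-count genes such as Ldhb can lie beyond a dotted line (2-fold) without passing. Bnip3 and Ak4 lie furthest to the left in both panels, and Ldhb furthest to the right in the left panel only.

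A ratio of isozymes within 1 library does not depend on how the libraries were scaled. The ratio of Pfkm to Pfkl counts was 0.133 in the library labelled ARPC4 ko, 0.137 in that labelled Nrf2-EGFP and 0.0438 in wt. It was 3.04-fold higher (2.61 to 3.54) under the ARPC4 ko label and 3.13-fold higher (2.66 to 3.69) under the Nrf2-EGFP label. The ratio of Pfkp to Pfkl was 0.364 (ARPC4 ko), 0.691 (Nrf2-EGFP) and 0.599 (wt), so the libraries labelled ARPC4 ko and Nrf2-EGFP lay on opposite sides of wt. Per kilobase of exon, Pfkl made up 69.1% of the 3 subunits in the library labelled ARPC4 ko, 61.8% in that labelled Nrf2-EGFP and 72.1% in wt, and Pfkm 18.4% (ARPC4 ko), 16.9% (Nrf2-EGFP) and 6.32% (wt). Ldhb was 2.43% of both subunits per kilobase in the library labelled ARPC4 ko, 0.251% in that labelled Nrf2-EGFP and 0.315% in wt. The ratio of Ldhb to Ldha was thereby 7.86-fold higher (5.42 to 11.7) under the ARPC4 ko label than in wt. Under the Nrf2-EGFP label the same ratio was 0.795 of that in wt (0.411 to 1.48), an interval that includes 1. Aldoa was over 97% and Eno1 over 99% of its family in each library, and Hk1 62.7% (ARPC4 ko), 58.5% (Nrf2-EGFP) and 60.6% (wt) of both hexokinases.

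**Figure D3:**
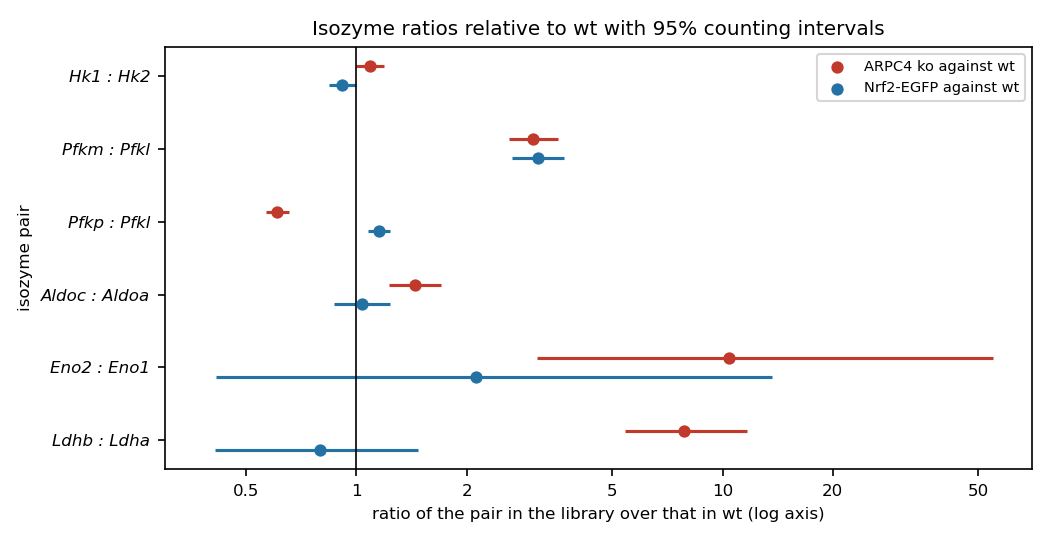
Ratio of the counts of isozyme pairs in the library labelled ARPC4 ko (red) and in that labelled Nrf2-EGFP (blue) over the same ratio in wt, on a log axis, with 95% counting intervals as bars. Pfkm to Pfkl lies near 3 in both, Pfkp to Pfkl on either side of 1, and Ldhb to Ldha at 7.86 in red with an interval that includes 1 in blue.

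Of the 3 regulatory kinases, Pfkfb3 and Pfkfb4 lay above wt and Pdk1 below it. Pfkfb3, which makes fructose 2,6-bisphosphate, the strongest activator of phosphofructokinase, had 55.5 CPM in the library labelled ARPC4 ko, 34.7 CPM in that labelled Nrf2-EGFP and 26.2 CPM in wt. It was 2.12-fold higher (1.92 to 2.34) under the ARPC4 ko label, past the 2-fold rule by a small margin (log2 fold 1.07), and 1.32-fold higher (1.19 to 1.47) under the Nrf2-EGFP label. Pfkfb4, another enzyme of that kind, had 10.3 (ARPC4 ko), 8.13 (Nrf2-EGFP) and 6.00 CPM (wt), or 1.72-fold higher (1.39 to 2.14) under the ARPC4 ko label and 1.35-fold higher (1.08 to 1.70) under the Nrf2-EGFP label. Pdk1, which keeps pyruvate out of the TCA cycle by inhibiting pyruvate dehydrogenase, had 39.2 (ARPC4 ko), 48.0 (Nrf2-EGFP) and 56.3 CPM (wt).

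Among HIF targets outside glycolysis, Bnip3 and Ak4 lay furthest below wt of all members past the filter under each label. Bnip3, a mitochondrial protein that promotes mitophagy (chromosome 7, 138890836 to 138909519), had 169 counts in the library labelled ARPC4 ko, 90 in that labelled Nrf2-EGFP and 531 in wt. These were 6.95 (ARPC4 ko), 3.62 (Nrf2-EGFP) and 23.6 CPM (wt), so Bnip3 was 3.40-fold lower (2.85 to 4.06) under the ARPC4 ko label and 6.52-fold lower (5.21 to 8.25) under the Nrf2-EGFP label. Its relative Bnip3l, also a mitophagy receptor and HIF target, had 58.3 (ARPC4 ko), 52.2 (Nrf2-EGFP) and 59.1 CPM (wt), and its ratio to wt was 1.01-fold lower (0.939 to 1.09) under the ARPC4 ko label and 1.13-fold lower (1.05 to 1.22) under the Nrf2-EGFP label. Ak4, a mitochondrial adenylate kinase (chromosome 4, 101419277 to 101466995), had 149 (ARPC4 ko), 176 (Nrf2-EGFP) and 709 counts (wt), or 6.13 (ARPC4 ko), 7.08 (Nrf2-EGFP) and 31.5 CPM (wt). It was 5.14-fold lower (4.31 to 6.18) under the ARPC4 ko label and 4.45-fold lower (3.77 to 5.28) under the Nrf2-EGFP label.

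HIFs bind a short core in DNA, written here as ACGTG or GCGTG, and the promoters of the members were searched for it on both strands. RefSeq promoter windows (build GRCm38.p6), from 250 bases before to 50 after an annotated start, were matched for 33 of the 35 members, all but Bnip3l and Ndrg1. At least 1 core was present in a window of 30 of the 33 members, or 90.9%, beside 69.3% of the genes compared that have a window and 46.7% of all genes that have one. A gene can have several windows, and many members are known HIF targets, so this share is a description. The windows of Bnip3 and Ak4 are shown because these genes lay furthest below wt, and those of Ldha and Ldhb because these partners differed in opposite directions under the ARPC4 ko label. Each sequence is read on the gene's strand, and capitals mark the cores of either strand. Where the cores of both strands overlap, as in the palindrome CACGTG, they were counted as 1 site.
Bnip3 (chr7:138909457-138909756, minus strand): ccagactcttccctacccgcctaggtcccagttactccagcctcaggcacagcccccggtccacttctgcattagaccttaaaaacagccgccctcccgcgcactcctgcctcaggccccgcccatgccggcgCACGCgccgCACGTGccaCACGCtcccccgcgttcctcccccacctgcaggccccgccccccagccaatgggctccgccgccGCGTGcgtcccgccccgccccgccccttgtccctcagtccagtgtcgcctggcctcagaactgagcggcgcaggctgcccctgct
Ak4, first annotated start (chr4:101419039-101419338, plus strand): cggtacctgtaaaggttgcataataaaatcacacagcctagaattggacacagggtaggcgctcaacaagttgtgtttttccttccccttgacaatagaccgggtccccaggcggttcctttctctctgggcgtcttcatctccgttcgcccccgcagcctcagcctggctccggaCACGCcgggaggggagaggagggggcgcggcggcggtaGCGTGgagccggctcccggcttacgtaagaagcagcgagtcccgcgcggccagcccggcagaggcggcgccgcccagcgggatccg
Ldha, first annotated start (chr7:46845554-46845853, plus strand): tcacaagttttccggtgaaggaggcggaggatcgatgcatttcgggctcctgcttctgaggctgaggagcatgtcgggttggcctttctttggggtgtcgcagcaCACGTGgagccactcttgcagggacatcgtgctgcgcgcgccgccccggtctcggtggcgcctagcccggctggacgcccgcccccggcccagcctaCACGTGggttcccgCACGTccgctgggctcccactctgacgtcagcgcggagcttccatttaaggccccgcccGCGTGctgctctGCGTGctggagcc
Ldhb (chr6:142507908-142508207, minus strand): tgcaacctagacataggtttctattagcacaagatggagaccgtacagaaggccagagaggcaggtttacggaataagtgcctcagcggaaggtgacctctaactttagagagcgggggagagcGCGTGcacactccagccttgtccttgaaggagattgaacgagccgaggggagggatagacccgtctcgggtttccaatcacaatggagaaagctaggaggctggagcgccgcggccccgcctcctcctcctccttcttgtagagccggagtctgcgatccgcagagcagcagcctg

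The Bnip3 window held 4 sites, with the CACGTG beginning at position -108, counted from the start. The Ldha window held 5 sites, among them a CACGTG at position -145 and another at -48. The Ak4 window held 2, at -74 and -36, and the Ldhb window 1, at -126. Of all 32851 windows 6.57% held 3 or more sites, beside 20.8% of the 53 windows of the members. At least 1 core was present in 63% of the windows of genes compared and in 43.8% of all windows. The share with 3 or more sites was not computed for the genes compared. Some windows of 1 member overlap, as several of Ak4 do, so the 53 are not separate promoters. The first windows of Pfkfb3 and P4ha2, with a higher level under the ARPC4 ko label than in wt, held 1 and 4 sites.

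**Figure D4:**
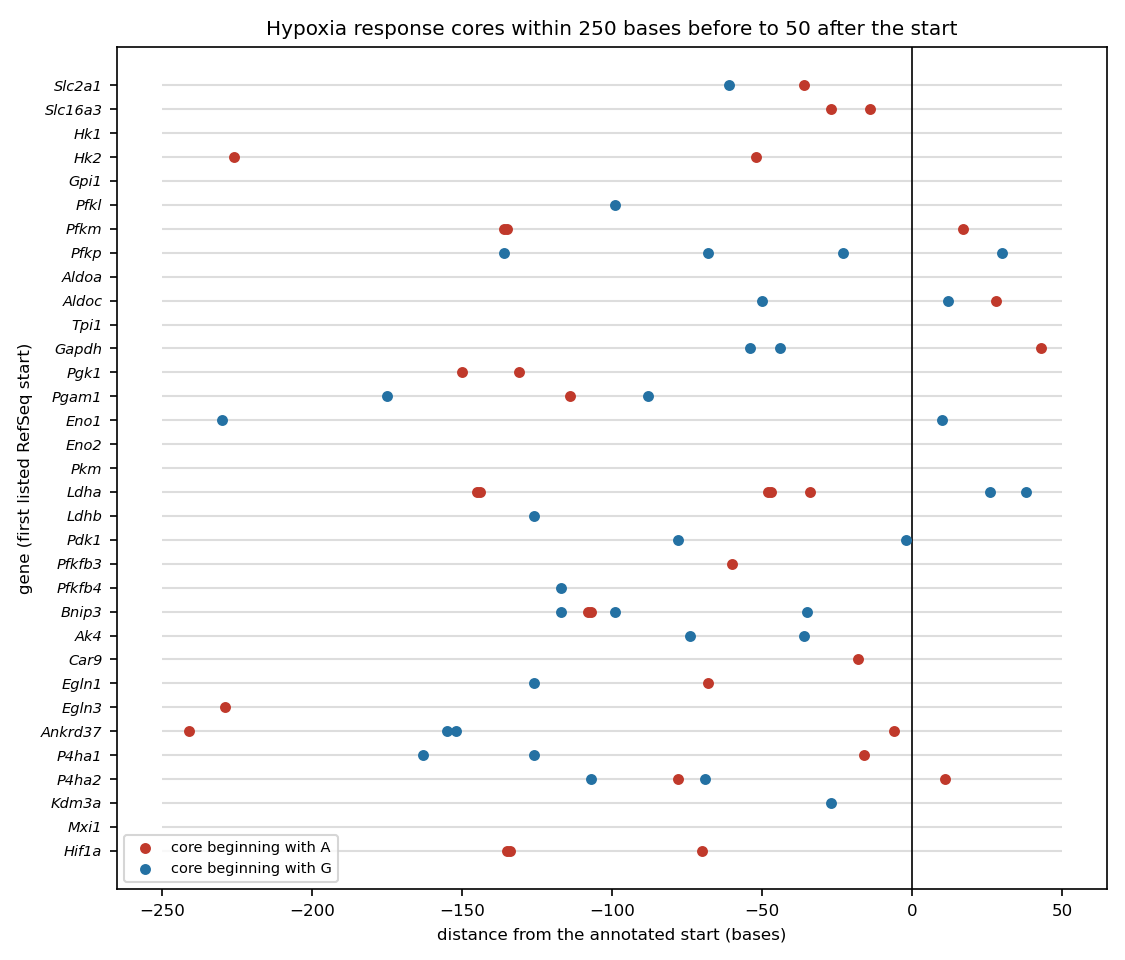
Positions of the cores in the first listed promoter window of the 33 members, in bases from the annotated start (the vertical line), with the core beginning with A in red and that beginning with G in blue. Each grey line is 1 window. Bnip3 and Ldha carry several cores, and the first windows of Hk1, Gpi1, Aldoa, Tpi1, Eno2, Pkm and Mxi1 carry none.

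P4ha1 and P4ha2 encode catalytic subunits of collagen prolyl 4-hydroxylase, and they lay on opposite sides of wt. P4ha1 had 39.9 CPM in the library labelled ARPC4 ko, 38.1 CPM in that labelled Nrf2-EGFP and 72.9 CPM in wt, or 1.83-fold lower (1.69 to 1.98) under the ARPC4 ko label and 1.92-fold lower (1.77 to 2.08) under the Nrf2-EGFP label. P4ha2 had 46.2 (ARPC4 ko), 37.0 (Nrf2-EGFP) and 30.7 CPM (wt), a log2 fold of 0.58 under the ARPC4 ko label, just short of the 1.5-fold rule, and 1.21-fold higher (1.09 to 1.33) under the Nrf2-EGFP label. Ndrg1, a stress-responsive gene, had 158 (ARPC4 ko), 184 (Nrf2-EGFP) and 232 CPM (wt). The histone demethylase Kdm3a had 67.8 (ARPC4 ko), 53.9 (Nrf2-EGFP) and 71.3 CPM (wt), and Mxi1, a MYC antagonist, had 27.7 (ARPC4 ko), 22.3 (Nrf2-EGFP) and 32.9 CPM (wt).

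The oxygen-sensing hydroxylase Egln1, the main one acting on HIF-1α, was close to wt, with 71.1 CPM in the library labelled ARPC4 ko, 70.1 CPM in that labelled Nrf2-EGFP and 78.5 CPM in wt. Egln3, its strongly HIF-inducible relative, had 52 (ARPC4 ko), 22 (Nrf2-EGFP) and 49 counts (wt). Its ratio to wt was 1.02-fold lower (0.675 to 1.53) under the ARPC4 ko label and 2.46-fold lower (1.46 to 4.27) under the Nrf2-EGFP label, where its log2 fold of -0.95 was not past the 2-fold rule. For Bnip3l, Egln3 and Kdm3a, all within 0.1 of 0 under the ARPC4 ko label, scaling by total counts also turned the sign. Ankrd37 had 23 (ARPC4 ko), 16 (Nrf2-EGFP) and 32 counts (wt), and its exons overlap those of Lrp2bp and Ufsp2 on the opposite strand. With 0.946 (ARPC4 ko), 0.644 (Nrf2-EGFP) and 1.42 CPM (wt), Ankrd37 passed the filter only through wt. Car9, the cell-surface carbonic anhydrase often used as a hypoxia marker, had 5 (ARPC4 ko), 5 (Nrf2-EGFP) and 4 counts (wt), so any difference between the libraries was not detectable at this depth.

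Hif1a (chromosome 12, 73901375 to 73947530) had 5547 counts in the library labelled ARPC4 ko, 5470 in that labelled Nrf2-EGFP and 8399 in wt, or 228 (ARPC4 ko), 220.1 (Nrf2-EGFP) and 374 CPM (wt). It was 1.64-fold lower (1.58 to 1.69) under the ARPC4 ko label and 1.70-fold lower (1.64 to 1.76) under the Nrf2-EGFP label, past the 1.5-fold rule in each. Of 16 HIF pathway regulators 15 were measured, with a median log2 fold of -0.03 under the ARPC4 ko label and 0.03 under the Nrf2-EGFP label. Arnt2, a relative of Arnt expressed mainly in the nervous system, was the one past the 2-fold rule, as higher under the Nrf2-EGFP label. That was 6.67% of the measured regulators, beside 3.57% of all genes. Arnt2 had 24 counts in the library labelled ARPC4 ko, 38 in that labelled Nrf2-EGFP and 8 in wt. With 0.987 (ARPC4 ko), 1.53 (Nrf2-EGFP) and 0.356 CPM (wt), it passed the filter only through the library where it was called higher. Arnt, the partner of HIF-1α, had 85.4 (ARPC4 ko), 73.8 (Nrf2-EGFP) and 98.5 CPM (wt), and Vhl, the ligase subunit that recognises hydroxylated HIF-1α, had 27.3 (ARPC4 ko), 26.2 (Nrf2-EGFP) and 22.7 CPM (wt). Arnt and Vhl were chosen after their values were seen.

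Other HIF targets lay on both sides of wt. Of 29 listed genes 24 were measured, and under the ARPC4 ko label 3 were past the 2-fold rule as higher and 1 as lower. These were 12.5% and 4.17% of the list, beside 4.7% and 2.06% of all genes. Under the Nrf2-EGFP label 4 were higher and 3 lower, or 16.7% and 12.5%, beside 3.57% and 2.05% of all genes. Ddit4, an inhibitor of mTORC1 signalling, had 57.1 CPM in the library labelled ARPC4 ko, 53.7 CPM in that labelled Nrf2-EGFP and 175 CPM in wt, or 3.07-fold lower (2.88 to 3.26) under the ARPC4 ko label and 3.26-fold lower (3.06 to 3.47) under the Nrf2-EGFP label. Plod2, a collagen lysyl hydroxylase, was 2.30-fold higher (2.05 to 2.58) under the ARPC4 ko label and 2.50-fold higher (2.24 to 2.81) under the Nrf2-EGFP label, and Angptl4, a secreted inhibitor of lipoprotein lipase, was 3.16-fold higher (2.44 to 4.13) under the ARPC4 ko label and 2.55-fold higher (1.96 to 3.35) under the Nrf2-EGFP label. Edn1, the vasoconstrictor endothelin 1, was 2.05-fold higher (1.76 to 2.40) under the ARPC4 ko label. Under the Nrf2-EGFP label it was 1.97-fold higher (1.69 to 2.31), just short of the 2-fold rule. Bhlhe40, a transcriptional repressor chosen after its values were seen, was 2.26-fold higher (2.12 to 2.41) under the Nrf2-EGFP label. Under the ARPC4 ko label it was 1.99-fold higher (1.86 to 2.12), just short of the rule. Under the Nrf2-EGFP label the carbonic anhydrase gene Car12 was 2.28-fold lower (2.09 to 2.48). The vasodilator gene Adm was 4.62-fold lower (2.36 to 9.89) under the Nrf2-EGFP label, with 11 counts against 46 in wt. With 0.782 (ARPC4 ko), 0.443 (Nrf2-EGFP) and 2.05 CPM (wt), Adm passed the filter only through wt, where it was highest. The median of this list was -0.20 under the ARPC4 ko label and -0.06 under the Nrf2-EGFP label.

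In the pathways that adjoin glycolysis few genes were past either rule. Of the 14 measured genes of pyruvate and lactate handling, the 8 of the pentose phosphate pathway, the 16 of the TCA cycle and the 10 of glycogen and gluconeogenesis, 0 were past the 2-fold rule in either comparison with wt, beside 4.7% higher and 2.06% lower of all genes under the ARPC4 ko label and 3.57% and 2.05% under the Nrf2-EGFP label. At 1.5-fold under the ARPC4 ko label, Pdk2 (2.20-fold, but under 2-fold from CPM + 0.5) and Pcx (1.66-fold) were higher, and Slc16a1 (1.52-fold) and Pck2 (1.68-fold) lower. At 1.5-fold under the Nrf2-EGFP label, Gys1 (1.56-fold), also among the other HIF targets, was lower. These 5 genes were chosen after their values were seen. Pdk2 and Slc16a1 were each 7.14% of the measured genes of pyruvate and lactate handling. Pcx, Pck2 and Gys1 were each 10% of those of glycogen and gluconeogenesis. Of all genes, 10.8% were higher and 6.24% lower at 1.5-fold under the ARPC4 ko label, and 8.61% and 5.72% under the Nrf2-EGFP label. In the order named above, the median log2 folds of these pathway lists under the ARPC4 ko label were -0.23, -0.24, -0.19 and -0.10. Under the Nrf2-EGFP label the medians of the same lists were -0.15, -0.01, -0.08 and -0.06. The glycolytic enzymes and transporters had -0.49 under the ARPC4 ko label and -0.51 under the Nrf2-EGFP label, and the remaining members -0.24 and -0.40. Of 19 further glycolytic isozymes and glucose transporters 6 were measured. The urate and sugar transporter gene Slc2a9 was past the 2-fold rule as higher under the ARPC4 ko label. It had 64 counts (2.63 CPM) there against 23 (1.02 CPM) in wt, close to the filter. That was 16.7% of the measured genes of this list, beside 4.7% of all genes. The lists fixed for this purpose were chosen with earlier results of these data known, and these medians carry no test.

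**Figure D5:**
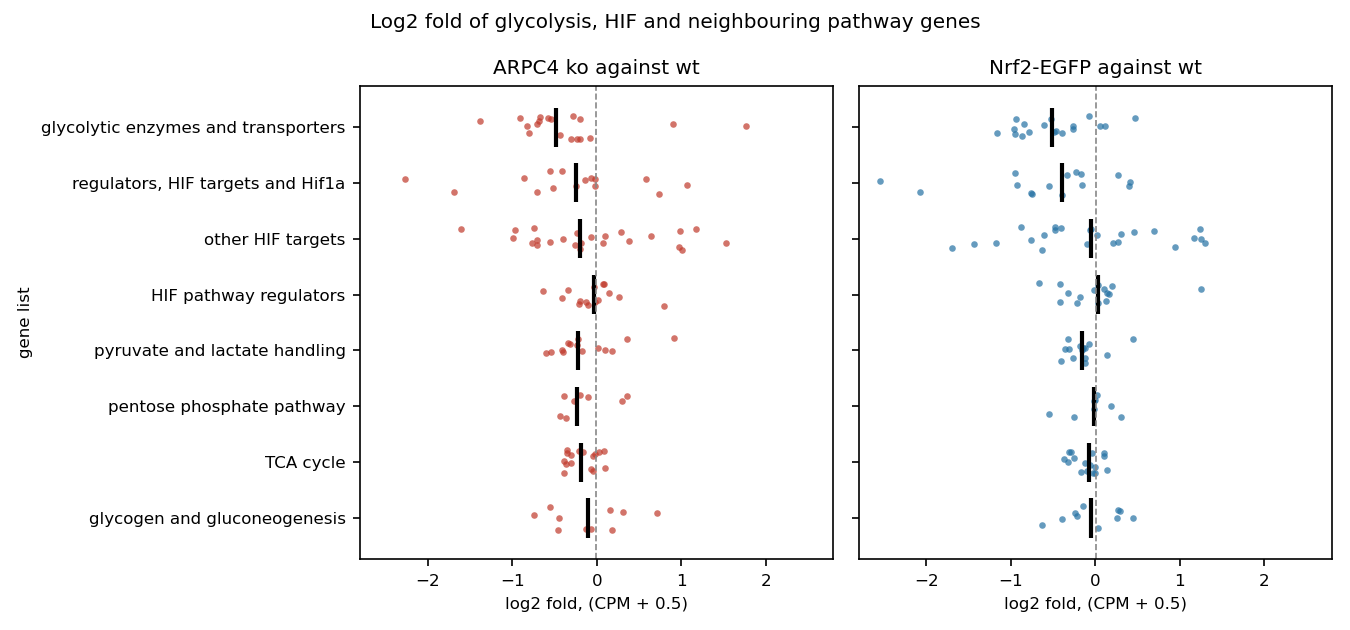
Log2 fold, from CPM + 0.5, of each measured gene in the library labelled ARPC4 ko (left) and in that labelled Nrf2-EGFP (right) against wt, by list. Points are genes, black bars are the medians of the lists and the dashed line is the median of the 11865 genes compared; the medians of the glycolytic enzymes and transporters, -0.49 and -0.51, lie furthest to the left.

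Between the libraries labelled ARPC4 ko and Nrf2-EGFP the members differed less. The median log2 fold of ARPC4 ko over Nrf2-EGFP was 0.05, beside -0.02 over all genes compared. Past the 2-fold rule, 1 member was higher under the ARPC4 ko label, beside 2.01% of all genes, and 0 were lower, beside 0.961%. That member was Ldhb, 10.1-fold higher (6.03 to 18.1), with 158 counts under the ARPC4 ko label against 16 under the Nrf2-EGFP label. At 1.5-fold, 4 members were higher, beside 5.85% of all genes, and 0 lower, beside 3.38%. Apart from Ldhb these were Pfkfb3, 1.60-fold higher (1.47 to 1.74), Bnip3, 1.92-fold higher (1.48 to 2.51), and Egln3, 2.42-fold higher (1.44 to 4.18). Ldha differed by 1.02-fold (0.996 to 1.05) and Hif1a by 1.04-fold (0.998 to 1.08).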

How the data were processed

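RNA from 3 keratinocyte cultures was made into strand-specific mRNA libraries and read as 65 bases from 1 end, per the labels' protocols. The authors deposited raw counts per gene identifier, with TopHat2 2.1.0, Bowtie 1.1, HTSeq and mm10 named in the submitters' processing notes. The strand and overlap settings of the counting were not given in the sources used here. Rows naming no gene held 8.22% (ARPC4 ko), 8.48% (Nrf2-EGFP) and 9.08% (wt) of all counts and were left out.

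Counts were scaled with TMM factors (edgeR 4.0.16 in R 4.3.3) of 1.06 (ARPC4 ko), 0.966 (Nrf2-EGFP) and 0.981 (wt). A gene was compared if any library reached 1 CPM for it. Log2 folds used CPM + 0.5. Folds and their exact 95% Clopper-Pearson intervals used scaled counts without it (scipy 1.17.1). The intervals cover counting error only, and the reads carry no molecular identifiers. With 1 library per label, no test of genotype was made.

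Gene names and lengths came from GENCODE M21. Shared sequence was found by aligning each 65-base window of 1 main transcript per gene to all annotated transcripts with bwa 0.7.19-r1273. Ratios of isozyme counts have exact conditional odds-ratio intervals. The calculation was tested on simulated data.

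All members are accounted for. From each other list, genes past the 2-fold rule against wt were named, up to 6 per comparison by size. 1 such gene is not reported here. The members and lists were chosen with earlier results of these data known. Alternatives were scaling by total counts, by DESeq2 1.42.0 size factors or by the upper quartile, a pseudocount of 2 CPM, no filter, a filter at 10 CPM, and the longest transcript as length.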

Additional observations from a re-analysis of the deposited data

How the results depend on the processing

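The counts of members past the 2-fold rule on the lower side were the stated 3, 3 and 0 under every scaling, pseudocount and filter tried. Scaling by total counts moved the median of all genes for ARPC4 ko against wt to 0.09 and for ARPC4 ko against Nrf2-EGFP to 0.11. Under it the members' median for ARPC4 ko against Nrf2-EGFP was 0.179 and 2 members were past the 2-fold rule as higher, Egln3 being added with a log2 fold of 1.03. It also split all genes past the rule for ARPC4 ko against wt into 683 higher and 198 lower, in place of 558 and 244. For the members in that comparison, 3 were then higher at 2-fold, in place of 2. At 1.5-fold 5 were higher and 9 lower, in place of 4 and 11, and the median was -0.327. The members' median for ARPC4 ko against wt was -0.305 with a pseudocount of 2 CPM, -0.306 without a filter and -0.518 with a filter at 10 CPM. That filter drops low-count genes, Ldhb among them: 1 member was then past the 2-fold rule as higher for ARPC4 ko against wt, and for ARPC4 ko against Nrf2-EGFP 0 at 2-fold and 2 at 1.5-fold. Over all genes, the pseudocount of 2 CPM left 311 higher and 143 lower for ARPC4 ko against wt, 258 and 104 for Nrf2-EGFP against wt, and 80 and 67 for ARPC4 ko against Nrf2-EGFP. The 10 CPM filter left 253 and 121, 242 and 92, and 52 and 62. With the longest transcript as length, the share of Hk1 was 75.6% (ARPC4 ko), 72.2% (Nrf2-EGFP) and 73.9% (wt). No paired analysis was possible because each label has 1 library, and for that reason no library could be left out. Depth limits Car9, Eno2, Ankrd37, Egln3 and Ldhb most.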
